A study of Mus musculus with 4 samples.

Results

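Complement components and their regulators were examined in RNA sequencing of mouse mammary basal cells. The 9 genes are C3, C4b, C2, Cfb, C1s1, C1ra, Serping1, Cd55 and Cd59a, out of 17630 genes listed. They were chosen by name with their measured values in these libraries already known, so their levels and fold changes are a description and support nothing by themselves. Basal cells are the outer, myoepithelial layer of the mammary duct, sorted here as cells without CD31, CD45 and TER119 and with CD24 and high CD29.

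The study asked how sympathetic nerve signals act on mammary basal cells, and 4 libraries were compared, with 1 library per condition. A pair of libraries came from basal cells sorted directly from mice, from control animals and from animals given 6-OHDA (6-hydroxydopamine), a toxin that destroys sympathetic nerve endings. The other pair came from colonies that basal cells formed in Matrigel, a basement membrane gel, without addition and with SP, the combination of salbutamol (an agonist of the β2 adrenergic receptor) and phenylephrine (an α1 adrenergic agonist). The mice were labelled WT in every group. The control colony library was recognised by its title, and the colony titles carry the numbers 0 and 200 without a unit. The labels give no strain, age, stated dose or number of pooled animals for these libraries.

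The deposited values are FPKM, fragments scaled to transcript length and to the depth of the library, a level that allows genes of different length to be compared. Their sums were 508071 and 517504 for the sorted control and 6-OHDA cells, and 577631 and 588202 for colonies without and with SP. Between 15756 and 16371 genes were above 0. Because no condition was replicated, no difference has a replicate check, and no p-value is given. A gene was called higher or lower when its change in log2(FPKM + 1) exceeded 0.3 in size, among genes with a mean of at least 1 FPKM over the 2 libraries compared.

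Complement is a cascade of proteins, most of them made by the liver, that tags and lyses microbes and damaged cells. In the classical pathway the proteases C1r and C1s cut C4 and C2 to build a C3 convertase, and in the alternative pathway factor B forms a convertase with a fragment of C3; C3 cleavage then leads to opsonisation and to a terminal pore complex, while C1 inhibitor, CD55 and CD59 restrain the cascade. Epithelial and stromal cells also make complement proteins locally, production is known to respond to inflammatory cytokines, and complement proteins are found in milk.

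All 9 members passed the filter on low values in each of the 3 comparisons. With 6-OHDA, 7 members were lower (C3, C2, Cfb, C1ra, C1s1, C4b and Serping1), where 8.35% of the 11749 genes tested were lower, and 1 member, Cd59a, was higher, where 15.8% of genes were. With SP, 4 members were lower (Cfb, C4b, Cd55 and C2), against 19.8% of 11849 genes, and 3 were higher (C1s1, C1ra and Serping1), against 11.7%. In control colonies compared with control sorted cells, 8 members were lower, against 26.6% of 12244 genes, and Cd59a alone was higher, against 55.7%. Nothing is read from these counts beyond the description, since the members were chosen with the same comparisons in view. In a bulk library, fewer cells of a type and less RNA per cell cannot be told apart.

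The median log2 fold change of the 9 members was -0.72 with 6-OHDA, where all genes tested had a median of 0.06. It was -0.09 with SP, where all genes had -0.07, and -2.54 in control colonies against control sorted cells, where all genes had 0.45. Summed over the 9 members, expression was 690.1 FPKM in the sorted control library, 378 in the sorted 6-OHDA library, 144 in control colonies and 153 in SP colonies. The sum was therefore highest in control cells taken directly from the gland, and the colony libraries had similar sums although single members moved in opposite directions between them.

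C1ra and C1s1 encode C1r and C1s, the proteases that open the classical pathway. C1ra stood at 36.5 FPKM in sorted control cells, 20.2 in sorted 6-OHDA cells, 9.48 in control colonies and 15.7 in SP colonies. C1s1 stood at 110.3, 66.5, 16.5 and 31.2 FPKM in the same order of libraries. The order of the 4 libraries was thus the same for both proteases, with sorted control cells highest and control colonies lowest. On the log2 scale C1ra changed by -0.83 with 6-OHDA and by 0.67 with SP, and C1s1 by -0.72 and 0.88. With SP, 296 of the 11849 genes tested were higher by more than C1s1, and 500 by more than C1ra. The level of C1s1 was 3.02 times that of C1ra in sorted control cells and 3.30 times in sorted 6-OHDA cells, and 1.74 and 1.99 times in control and SP colonies.

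C4b, which encodes complement C4, supplies the fragment that anchors the classical C3 convertase. Its level was 70.8 FPKM in sorted control cells, 49.9 in sorted 6-OHDA cells, 8.87 in control colonies and 3.67 in SP colonies. Each pair therefore had C4b lower in the treated library, with log2 fold changes of -0.50 for 6-OHDA and -1.08 for SP, while the proteases of C1, which cut its product, were lower with 6-OHDA and higher with SP. C2 encodes the catalytic partner of C4 in the convertase. It was listed at 18.2, 8.79, 1.49 and 0.96 FPKM in sorted control, sorted 6-OHDA, control colony and SP colony libraries, and was the lowest member in both colony libraries. Its log2 fold change was -0.97 with 6-OHDA and -0.35 with SP. The SP value passed the threshold narrowly and fell short of it with a pseudocount of 5 (-0.12) and after quantile normalization (-0.27).

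C3 is the component on which the pathways converge. It was the most abundant member in each library, at 269 FPKM in sorted control cells, 98.4 in sorted 6-OHDA cells, 59.8 in control colonies and 61.1 in SP colonies. Its rank among all genes listed was 281 in sorted control cells, 821 in sorted 6-OHDA cells, 1477 in control colonies and 1449 in SP colonies. The 6-OHDA library held 2.74-fold less C3 than its control by the ratio of FPKM, a change of -1.44 on log2(FPKM + 1), and 41 of the 11749 genes tested were lower by more. The colony libraries differed little in C3, with a log2 fold change of 0.03 for SP.

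Cfb encodes factor B, the alternative pathway protease that plays the part C2 plays in the classical pathway. It was listed at 87.6 FPKM in sorted control cells, 47.8 in sorted 6-OHDA cells, 5.37 in control colonies and 2.01 in SP colonies. Its changes were -0.86 with 6-OHDA and -1.08 with SP on the log2 scale, so Cfb, C4b and C2 were lower in the treated library of each pair. At these low colony levels the size of the SP change depends on the pseudocount, and with a pseudocount of 5 it was -0.56 for Cfb and -0.68 for C4b. With SP, 123 genes tested were lower by more than Cfb and 124 by more than C4b. C3 stood at 3.07 times the level of Cfb in sorted control cells and 2.06 times in sorted 6-OHDA cells, and at 11.1 and 30.4 times in control and SP colonies. The ratio of C3 to C4b moved in the same order, from 3.80 and 1.97 in the sorted control and 6-OHDA libraries to 6.74 and 16.7 in control and SP colonies. The ratios of C3 to Cfb and to C4b were thus higher in colonies, most of all with SP, although C3 itself was lower in colonies. Between the colony libraries C3 differed little, while Cfb and C4b were lower with SP.

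Serping1 encodes C1 inhibitor, a secreted serpin that inactivates C1r and C1s. Its level was 61.8 FPKM in sorted control cells, 48.9 in sorted 6-OHDA cells, 9.80 in control colonies and 15.3 in SP colonies. This was the order seen for the proteases it inhibits, with changes of -0.33 with 6-OHDA and 0.59 with SP. C1s1 stood at 1.78 times the level of Serping1 in sorted control cells, 1.36 times in sorted 6-OHDA cells, 1.68 times in control colonies and 2.04 times in SP colonies.

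Cd55 encodes decay-accelerating factor, a membrane protein that dismantles convertases on host cells. It was listed at 28.0 FPKM in sorted control cells, 27.7 in sorted 6-OHDA cells, 21.9 in control colonies and 12.6 in SP colonies. Cd55 thus differed little between the sorted libraries (log2 fold change -0.01) and was lower in SP colonies than in control colonies (-0.76). Cd59a encodes the mouse form of CD59, a membrane inhibitor of the terminal pore. Its levels lay close together, at 7.70, 9.74, 10.95 and 10.19 FPKM in sorted control, sorted 6-OHDA, control colony and SP colony libraries. The sorted control library, which had the highest level of the other members, had the lowest level of Cd59a. Its change with 6-OHDA was 0.304, just past the threshold, and it fell short of the threshold under 3 of the 4 other scalings of the libraries; its change with SP was -0.09. The level of C3 was 9.63 times that of Cd55 in sorted control cells, 3.55 times in sorted 6-OHDA cells, and 2.73 and 4.86 times in control and SP colonies.

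**Figure D1:**
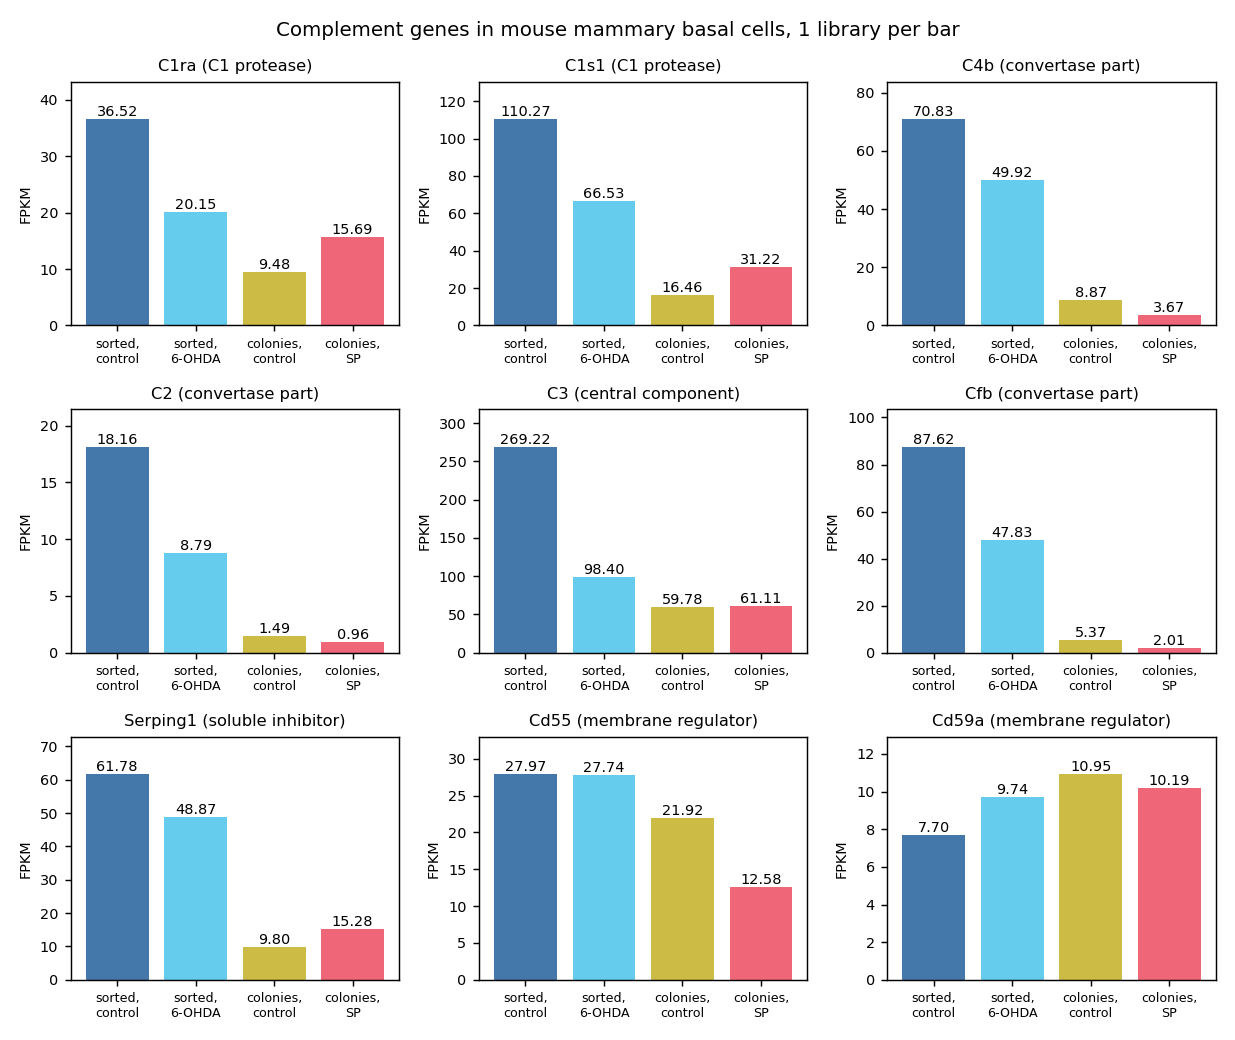
Bars give the level in FPKM of each of the 9 complement genes in the 4 libraries, 1 library per bar and no error bars, with each vertical axis starting at 0 and scaled to its gene. Sorted control cells are highest for each gene except Cd59a, while C1ra, C1s1 and Serping1 are higher in SP colonies than in control colonies and C4b, C2, Cfb and Cd55 are lower.

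The comparison of control colonies with control sorted cells shares a library with each of the other comparisons, and culture, sorting, time and digestion differ together in it and cannot be told apart. By the ratio of FPKM, without a pseudocount, Cfb was 16.3-fold lower in colonies, C2 12.2-fold and C4b 7.99-fold. On log2(FPKM + 1) the changes were -3.80, -2.94 and -2.86, and that of C2, low in colonies, ran from -1.84 with a pseudocount of 5 to -3.52 with 0.1. C1s1 changed by -2.67, Serping1 by -2.54, C3 by -2.15 and C1ra by -1.84. The 7 members that encode secreted proteins were therefore each lower in culture by more than 1 on the log2 scale, and the 2 membrane members moved less, Cd55 by -0.34 and Cd59a by 0.46. This did not hold for all complement genes, since Csmd1, a membrane regulator outside the members, changed by -1.12, and Masp1, which is secreted, by 1.64. The median of all genes tested was 0.45 in this comparison and -0.01 after the libraries were scaled by their median ratio. Relative to that scaling, Cd55 changed by -0.83 and Cd59a by 0.00, and the median of the 9 members was -3.02; after quantile normalization the change of Cd59a turned to -0.03. A higher level of Cd59a in colonies was thus not kept under these scalings, while the 8 lower members stayed lower.

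As a result the order of the members differed between control sorted cells and control colonies, and it also differed within each pair. In sorted control cells C3 was followed by C1s1, Cfb, C4b, Serping1, C1ra, Cd55, C2 and Cd59a. In control colonies Cd55 followed C3 directly, and C1s1 and Cd59a came next. In SP colonies C3 was instead followed by C1s1, C1ra, Serping1 and Cd55, and in sorted 6-OHDA cells by C1s1, C4b, Serping1 and Cfb. Without replicates, neighbours in these orders with close values, such as Serping1 at 9.80 and C1ra at 9.48 FPKM in control colonies, cannot be told apart.

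**Figure D2:**
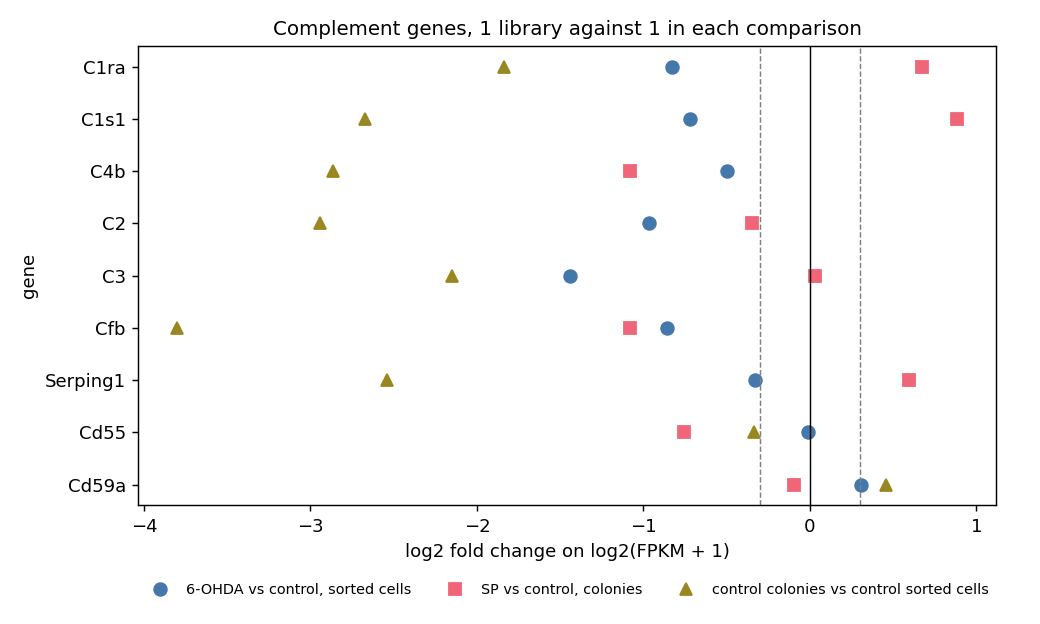
Points give the log2 fold change, on log2(FPKM + 1), of each of the 9 genes (vertical axis) for 6-OHDA against control in sorted cells, SP against control in colonies, and control colonies against control sorted cells, each from 1 library against 1. Dashed lines mark changes of 0.3 in either direction; the points for 6-OHDA run from -1.44 for C3 to 0.30 for Cd59a, and those for SP from -1.08 for Cfb to 0.88 for C1s1.

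Beyond the 9 members, 50 further complement genes were listed by role, of which 39 had values. With 6-OHDA, 11 of them passed the filter, 3 were higher and 5 were lower, with a median log2 fold change of 0.15 where all genes tested had 0.06. With SP, 7 passed the filter, 2 were higher and 2 were lower (median -0.06, all genes -0.07). In control colonies against sorted cells 11 passed, 2 were higher and 7 were lower (median -1.04, all genes 0.45). Of all genes tested, 8.35% were lower and 15.8% higher with 6-OHDA, 19.8% and 11.7% with SP, and 26.6% and 55.7% in culture. These shares also stand beside the unrescaled counts by role, marker list and context list below. By role, of the initiation genes 0 were higher and 2 lower with 6-OHDA, 2 and 1 with SP, and 2 and 1 in culture, of 3 tested each time. Of the membrane regulators 1 was higher and 1 lower, 0 and 0, and 0 and 1 in the same order, of 2 tested each time. The few tested amplification genes gave 1 higher of 1 with 6-OHDA and 1 lower of 1 in culture, and receptors 1 higher of 2 and 1 lower of 1. Of the terminal genes 1 was tested with SP and in culture, and 0 were called. Of the soluble regulators 0 were higher and 2 lower with 6-OHDA, of 3 tested. With SP 0 were higher and 1 lower, of 1 tested, and in culture 0 and 3, of 3 tested.

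Among the genes that start the cascade, 12 of 15 had values and most were low. The subunits of C1q, the recognition part of C1, were between 0.49 and 1.15 FPKM in the sorted libraries for C1qa, C1qb and C1qc, and all 3 were listed at 0 in both colony libraries. Expression of C1ra and C1s1 was therefore measured in colonies in which no C1q subunit was. Masp1, a protease of the lectin pathway, was listed at 2.65 FPKM in sorted control cells, 1.79 in sorted 6-OHDA cells, 10.3 in control colonies and 4.24 in SP colonies. It was lower with 6-OHDA (-0.39) and with SP (-1.11), and higher in control colonies than in sorted control cells (1.64). Colec11, a lectin that can start the same pathway, was lower with 6-OHDA, at 0.81 FPKM against 1.46 (-0.44), and Colec12, a membrane lectin, was lower in control colonies, at 0.74 against 3.99 FPKM in sorted control cells (-1.52). With a pseudocount of 5, Masp1 and Colec11 were no longer called lower with 6-OHDA.

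The close relatives of C1ra and C1s1 were much lower than they were. C1s2 was listed at 0.45, 0.44, 2.04 and 3.84 FPKM, and C1rl, a protease related to C1r, at 0.51, 0.60, 0.74 and 1.26 FPKM, in sorted control, sorted 6-OHDA, control colony and SP colony libraries. Both were higher with SP, with log2 fold changes of 0.67 and 0.38. The call of C1rl was lost with a pseudocount of 5. C1rb did not exceed 0.27 FPKM in any library. Reads of C1ra and C1rb, C1s1 and C1s2, Cd55 and Cd55b, and Cd59a and Cd59b can be shared between near-identical copies, so the division between these relatives is uncertain, and C4a, the relative of C4b, was not analysed here.

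Of the genes for amplification, Cfp (properdin, which stabilises the alternative convertase) was higher with 6-OHDA, at 3.29 against 2.34 FPKM (0.36), and was listed at 0.92 FPKM in control colonies and 1.07 in SP colonies. The call of Cfp with 6-OHDA was lost with a pseudocount of 5 and after quantile normalization. Cfd, factor D, the protease that activates factor B, did not exceed 1.17 FPKM and was listed at 0 in SP colonies. The 6 genes of the terminal pathway with values were all low, and the highest value among them was 1.35 FPKM, for C8g in control colonies. The transcripts for C3 and factor B were thus present in libraries that held little transcript for factor D, C5 (Hc, at most 1.07 FPKM) or the pore proteins.

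Clu, which encodes clusterin, a secreted chaperone that also restrains the terminal complex, was the most abundant of all complement genes listed. It stood at 658 FPKM in sorted control cells, 378 in sorted 6-OHDA cells, 319 in control colonies and 183 in SP colonies, and was lower in the treated library of each pair (-0.80 with 6-OHDA and -0.80 with SP). Vtn, for vitronectin, another soluble inhibitor of the pore, was lower with 6-OHDA, at 4.47 against 10.5 FPKM (-1.07), and was listed at 0.04 in control colonies and 0 in SP colonies. C4bp was listed at 0 in each library except control colonies, where it was 0.04 FPKM.

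Cr1l, the mouse membrane regulator also called Crry, had levels of 30.9 FPKM in sorted control cells, 41.2 in sorted 6-OHDA cells, 37.0 in control colonies and 35.4 in SP colonies. It was higher with 6-OHDA (0.40) and changed by -0.06 with SP. Among the membrane regulators Cr1l therefore exceeded Cd55 in every library, and C3 was 8.72 times as high as Cr1l in sorted control cells and 1.62 times in control colonies. Csmd1, a membrane protein with complement regulatory domains, was lower with 6-OHDA (-0.37), from 2.23 FPKM in sorted control cells, a call lost with a pseudocount of 5. Cd46 did not exceed 0.40 FPKM, and Susd4, another membrane regulator, changed by -0.02 with SP. Of the receptors, C3ar1, C5ar1 and C5ar2, which bind the C3 and C5 fragments that attract leukocytes, did not exceed 0.24 FPKM, and Cd93, an endothelial and myeloid surface protein once described as a C1q receptor, was listed at 10.7 FPKM in sorted control cells, 17.4 in sorted 6-OHDA cells and 0.03 in both colony libraries.

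Cell type markers moved in several of these comparisons, and their part in the complement values was not tested. All 9 basal markers had at least 1 FPKM in each library, summing to 10055 FPKM in sorted control cells, 8994 in sorted 6-OHDA cells, 6522 in control colonies and 14408 in SP colonies, with Krt14 highest. With 6-OHDA 1 basal marker was higher and 2 were lower. With SP, 7 basal markers were higher and 1 was lower, with a median of 0.88, while 6 were lower and 1 was higher in control colonies than in sorted cells. The 9 luminal markers summed to 1391, 1265, 1902 and 1825 FPKM in the same order of libraries, with Krt8 highest. Luminal markers numbered 0 higher and 2 lower of 8 tested with 6-OHDA, and 0 higher and 3 lower of 9 with SP. In control colonies 7 luminal markers were higher than in sorted cells before rescaling and after quantile normalization, and 4 after scaling to the same sum or by the median ratio.

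Leukocyte markers were low in all libraries. Their 10 genes summed to 15.1 FPKM in sorted control cells and 14.1 in sorted 6-OHDA cells, with 0 of 5 tested called in either direction, and to 3.66 and 4.66 FPKM in control and SP colonies, where 0 of 1 tested was called with SP and 3 of 3 were lower in culture. Cd68 was the highest of them, and Ptprc, the gene for CD45, was listed at 0.77 and 0.47 FPKM in the sorted libraries and at 0 in both colony libraries. Endothelial markers were present in the sorted libraries although CD31, the product of Pecam1, was used to remove such cells. The 6 genes summed to 242 FPKM in sorted control cells and 235 in sorted 6-OHDA cells, with Pecam1 at 106.6 and 93.0, and to 1.75 and 1.85 FPKM in control and SP colonies, where 0 of 1 tested was called with SP. With 6-OHDA, 2 endothelial markers were higher and 0 were lower, while all 6 were lower in control colonies than in sorted cells.

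Fibroblast markers, from cells that are known to make several complement proteins, summed to 201 FPKM in sorted control cells, 402 in sorted 6-OHDA cells, 47.4 in control colonies and 28.5 in SP colonies. With 6-OHDA 6 of 10 were higher and 0 were lower, and Col3a1 went from 18.3 to 91.7 FPKM. The bearing of this on the complement members was not tested. With SP 5 of 7 tested were lower and 1, Fbln1, was higher, and in control colonies 7 of 9 tested were lower than in sorted cells and 1, Pdgfra, was higher (2.62 to 9.95 FPKM). Dcn was the highest fibroblast marker in the sorted libraries, at 115.2 and 134.5 FPKM, and Dpt was listed at 0 in SP colonies. The fibroblast level thus differed between the libraries of every comparison.

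Of the adipocyte markers, Fabp4, which capillaries also express, made up nearly all of the sum, at 210 FPKM in sorted control cells, 374 in sorted 6-OHDA cells, 34.4 in control colonies and 1.05 in SP colonies. It was the 1 adipocyte marker tested in each comparison, higher with 6-OHDA and lower with SP and in culture. Adipoq did not exceed 1.66 FPKM, and Plin1 and Cidec were listed at 0 in SP colonies. The 3 hepatocyte markers with values summed to at most 0.56 FPKM, so the main source of complement in the body left little trace in any library, and 0 of them were tested. Salivary gland secretory genes, listed with their values known, were high in the 6-OHDA library alone. The 8 genes summed to 15743 FPKM there, or 3.04% of the library, led by Bpifa2 at 7277 FPKM, and to at most 1.47 FPKM in the others; 7 of 7 tested were higher with 6-OHDA, 0 were tested with SP and 0 of 1 was called in culture. When both sorted libraries were rescaled without these genes, 7 members were lower with 6-OHDA, with a median of -0.71 in place of -0.72. This rescaling alters only the scale of the libraries, and by little. It cannot show whether other transcripts came with the salivary genes, and their source was not tested.

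Genes that answer to interferon, NF-κB and acute phase signals were listed as context, since complement genes are known targets of such signals. Of 13 interferon-responsive genes, 12 were lower with 6-OHDA (median -0.96, all genes 0.06), 3 were lower with SP (-0.14, all genes -0.07) and 11 were lower in control colonies than in sorted cells (-2.31). Gbp2, an interferon-induced GTPase, was listed at 143.5, 43.7, 8.91 and 6.28 FPKM in sorted control, sorted 6-OHDA, control colony and SP colony libraries, and Irf1, an interferon-induced transcription factor, at 135.9, 102.2, 22.8 and 21.6 FPKM. The GTPases Irgm1, Igtp and Gbp3 had the same order of libraries, with Irgm1 at 78.0, 31.1, 15.9 and 12.5 FPKM. Igtp changed by -1.38 with 6-OHDA and by -4.43 in culture, Gbp3 by -3.65 in culture, and Irf7, an interferon-induced factor, by -0.46 with SP. Gbp2 was therefore highest in sorted control cells and lowest in colonies, as every member except Cd59a was. In control colonies Psmb8 and Psmb9 were higher than in sorted cells, a call that 0 interferon-responsive genes kept under the 4 other scalings.

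None of the 7 NF-κB pathway genes passed the threshold with 6-OHDA or with SP (medians -0.16 and -0.09), and all 7 were lower in control colonies (-1.36). Nfkb2, at 98.3 FPKM in sorted control and 80.3 in sorted 6-OHDA cells (-0.29), passed it with 6-OHDA under scaling to the same sum or by the median ratio. Nfkbia was the most abundant, at 203 and 212 FPKM in the sorted libraries and 127 and 119 in the colonies, followed by Nfkb1 (136.1 and 121.9, then 49.9 and 47.5) and Rela (97.8 and 86.9, then 37.6 and 34.9). In culture Birc3 changed most (-1.72), then Nfkb2 (-1.68) and Nfkb1 (-1.43), and with SP the largest changes were 0.11 for Birc3, -0.11 for Tnfaip3 and -0.11 for Rela.

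Acute phase genes moved in both directions. With 6-OHDA 2 of 9 tested were higher, Hp (4.87 to 13.2 FPKM) and Saa3 (listed at 0 and 6.14 FPKM), and 2 were lower, Cebpb (408.5 to 274 FPKM) and Socs3 (353 to 276 FPKM), with a median of -0.12. With SP 4 of 12 were higher, among them Saa1 (3.83 to 25.7 FPKM), Saa2 (2 to 22.7) and Hp (104.1 to 175.8), and 4 were lower, among them Saa3 (45.8 to 9.32), or 2 lower after median ratio scaling and 3 after quantile normalization, with a median of 0.02. In control colonies 4 were higher than in sorted cells (Hp, Saa1, Saa2 and Saa3) and 6 were lower, among them Stat3 (306 to 153 FPKM) and Socs3 (353 to 57.1). Lcn2, at 762 FPKM in sorted control cells and 848 in control colonies, did not pass the threshold. After median ratio scaling Lcn2 was called lower. The secreted acute phase products Hp and Saa3 were thus higher in colonies than in sorted control cells, whereas C3, another acute phase protein, was lower in colonies.

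The genes most like C3 were sought by the distance between centred log2(FPKM + 1) profiles over the 4 libraries, among 9101 genes with a mean of at least 5 FPKM. The 5 nearest were Slfn2 (distance 0.25), Ifi204 (0.33), Znfx1 (0.36), Parp14 (0.37) and Tmem140 (0.41). Slfn2, for example, was listed at 21.5, 6.83, 4.32 and 5.16 FPKM in sorted control, sorted 6-OHDA, control colony and SP colony libraries. Nearest to the mean profile of the 9 members were Per2 (0.10), Gstt1 (0.15), H2-Q4 (0.16), Cebpb (0.17) and Aoc2 (0.20). With 4 libraries many genes lie close to any profile, and these distances are a description only.

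Several members are neighbours in the genome (RefSeq, GRCm38.p6). Cfb (chr17:34856374-34862514, minus strand) lies directly downstream of C2 (chr17:34862602-34882100, minus strand), with 87 bases between the annotated genes, and C4b (chr17:34728139-34743902) lies 112471 bases further on. C1ra (chr6:124512621-124523440, plus strand) and C1s1 (chr6:124530344-124542392, minus strand) lie 6903 bases apart and are read towards each other. Both neighbouring pairs changed in the same direction in each comparison. Cfb and C2 were lower in all 3, and C1ra and C1s1 were lower with 6-OHDA, higher with SP and lower in culture. With 6-OHDA 7 of the 9 members were lower and in culture 8, so a shared direction there does not set neighbours apart. Serping1, on another chromosome, changed in the same directions as C1ra and C1s1 (-0.33, 0.59 and -2.54). The SP call of C2 was lost with a pseudocount of 5 and after quantile normalization. C3 lies elsewhere on the same chromosome as Cfb (chr17:57203967-57228136), Serping1 and Cd59a are on chromosome 2, and Cd55 is on chromosome 1.

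Sequences around the annotated gene start are shown for C3, the most abundant member, and for the neighbours C1ra and C1s1, whose changes ran together. RefSeq promoter windows of 250 bases on GRCm38.p6 were matched for 5 of the 9 members (C3, C1ra, C1s1, Cd55 and Cd59a), in 6 windows as C1s1 has a pair that overlap. Windows may reach into the annotated gene, by 33 bases for the C1s1 window printed and by 0 for C3 and C1ra, and that of Cd55 lies wholly inside it; those of C4b, C2, Cfb and Serping1 were not used here. The windows were searched on both strands for TTGCNNAA (C/EBP), TTCNNNGAA (GAS), GAAANNGAA (ISRE core), TATAAA (the box at many start sites) and an NF-κB motif. Capitals mark a match to the C/EBP letters.
C3, chr17:57228137-57228386, minus strand: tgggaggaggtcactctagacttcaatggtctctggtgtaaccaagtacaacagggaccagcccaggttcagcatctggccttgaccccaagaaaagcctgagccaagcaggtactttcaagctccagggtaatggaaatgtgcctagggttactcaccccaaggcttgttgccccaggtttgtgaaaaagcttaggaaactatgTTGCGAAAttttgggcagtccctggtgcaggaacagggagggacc
C1ra, chr6:124512371-124512620, plus strand: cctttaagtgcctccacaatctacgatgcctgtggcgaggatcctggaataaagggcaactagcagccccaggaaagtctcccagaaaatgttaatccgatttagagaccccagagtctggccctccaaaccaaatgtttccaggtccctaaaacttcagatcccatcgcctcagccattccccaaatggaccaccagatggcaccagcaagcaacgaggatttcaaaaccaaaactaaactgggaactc
C1s1, chr6:124542360-124542609, minus strand: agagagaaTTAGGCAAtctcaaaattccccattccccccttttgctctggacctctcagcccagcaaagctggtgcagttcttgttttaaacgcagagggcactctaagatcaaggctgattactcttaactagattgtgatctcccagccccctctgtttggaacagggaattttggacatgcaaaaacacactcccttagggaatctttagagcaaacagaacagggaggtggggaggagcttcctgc

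The match in the C3 window, TTGCGAAA, begins 45 bases before the annotated gene, and that in the C1s1 window, TTAGGCAA, lies on the opposite strand and begins 209 bases before the annotated gene. Letters for C/EBP were found in 9.56% of 32851 such windows, those for GAS in 7.02%, the ISRE core in 7.13%, the NF-κB motif in 7.25% and TATAAA in 12.4%. Cd59a held a match to the ISRE core, GAAAGGGAA, 139 bases before the annotated gene, and C1ra and Cd55 held none of the 5 motifs. A match is a description of letters and does not show that a factor binds there.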

How the data were processed

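Gene expression was measured by RNA sequencing in 4 libraries, 1 per condition, so conditions were compared as 1 library against 1 and no test was run. The authors deposited FPKM values with 2 decimals. The submitters' processing notes name Bowtie2, RSEM 1.3.1, DESeq2 1.4.5 and mm10, with no role or order, and the annotation is not given in the sources used here. FPKM divides by all fragments of a library, so very abundant transcripts in 1 library lower the values of its other genes, and RSEM-type estimates share reads among similar genes.

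Gene numbers were matched to symbols through the RefSeq table of GRCm38.p6, for 17512 of 17630 genes. Fold changes were taken on log2(FPKM + 1), which understates changes of low genes, among genes with a mean of at least 1 FPKM over the 2 libraries, and called past 0.3, the fold threshold of the study. The scripts were tested on simulated data.

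The members and lists were chosen with earlier results of these data known. Lists held complement genes by role, genes of interferon, NF-κB and acute phase signals, and markers of basal, luminal, leukocyte, fibroblast, endothelial, adipocyte, hepatocyte and salivary gland cells. Named were all members, other complement genes from among the 8 largest changes per comparison, the 3 most abundant genes of each context list and its 3 most changed per comparison, and the 5 genes nearest to C3 and to the members' mean; further genes were named after their values were seen.

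Alternatives were pseudocounts of 0.1 and 5, no filter or a mean of at least 5 FPKM, a threshold of 1, and 4 scalings (same sum, same sum without salivary genes, median ratio and quantile normalization). Scaling to the same sum also raises all values, so the filter and pseudocount act less under it. Those for the other complement genes were added after the data were seen. Depth was estimated from the steps of low FPKM values. Python 3.11.15, numpy 2.4.6, pandas 2.3.3 and matplotlib 3.10.9 were used.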

Additional observations from a re-analysis of the deposited data

How the results depend on the processing

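No paired analysis was possible because each group has 1 library. Without replicates, a fold change or median was taken as moved when it shifted by more than 0.3. Of 27 member fold changes, 24 were called, and 20 kept their call under every alternative that gave a value at the threshold of 0.3. The 4 that did not were Cd59a with 6-OHDA, C2 with SP, and Cd55 and Cd59a in culture, where Cd59a turned to -0.0292872 under quantile normalization. With 6-OHDA 0 member fold changes moved. With SP 2 moved, both with a pseudocount of 5, Cfb to -0.56 and C4b to -0.68. In culture all 9 moved with median ratio scaling, 5 with a pseudocount of 5, 3 with quantile normalization, and 1, that of C2, with a pseudocount of 0.1 and at the same sum with or without salivary genes. The cause was not tested unless fewer genes or a stricter threshold set it.

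With 6-OHDA, 0 members were higher under a pseudocount of 5, scaling to the same sum, median ratio scaling, quantile normalization and a threshold of 1, where 1 was lower. All genes numbered 1857 higher and 981 lower, but 804 and 539 with a pseudocount of 5, 1066 and 639 with a mean of at least 5 FPKM, and 123 and 106 at a threshold of 1. Other complement genes numbered 2 lower with a pseudocount of 5 or a mean of at least 5 FPKM, 5 higher without a filter, 5 higher at the same sum and 6 higher at the same sum without salivary genes, where 19 in place of 11 passed the filter so that the counts are not of scaling alone, and 0 higher and 1 lower at a threshold of 1.

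With SP, 2 members were lower with a mean of at least 5 FPKM, and 0 were higher and 2 lower at a threshold of 1. All genes numbered 1276 lower with a pseudocount of 5, and 237 higher and 158 lower at a threshold of 1. Other complement genes numbered 1 higher with a pseudocount of 5, 0 higher with a mean of at least 5 FPKM, 6 lower without a filter, and 0 higher and 1 lower at a threshold of 1.

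In culture the members' median was -2.08 with a pseudocount of 5 and -3.02 with median ratio scaling, and 0 members were higher under median ratio scaling, quantile normalization or a threshold of 1. All genes numbered 4902 lower with median ratio scaling, and 3761 higher and 1619 lower at a threshold of 1. Other complement genes numbered 5 higher and 14 lower without a filter, and 1 higher and 3 lower with a mean of at least 5 FPKM.

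Among all genes past 0.3, the higher ones made up 65.4% with 6-OHDA, 37.1% with SP and 67.7% in culture, but 50.4%, 49.96% and 49.6% after median ratio scaling and 47.3%, 47.2% and 54.3% after quantile normalization. The median of all genes in culture, 0.45 as deposited, was 0.28 at the same sum, -0.01 with median ratio scaling and 0.11 after quantile normalization.

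Depth limits the low members. From the steps of low FPKM values, 1 FPKM on a transcript of 1 kilobase stood for 15.1 to 18.9 fragments, with scores of 0.34 to 0.63 on a scale whose best value is 1. At that rough depth C2 would rest on about 60 fragments in control colonies and 40 in SP colonies, and C3 on about 5140 and 5350.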
